A study of Mus musculus with 12 samples.

Results

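The genes described here are 42 genes of blood vessel endothelium and of angiogenesis, the growth of new vessels from existing ones. They were taken by symbol from a list that was chosen with earlier results of these data known. A gene's value is that of its probe set on the array (each of the 42 has exactly 1 probe set that names a single gene). All 42 were measured, among 19938 genes in all. The material was biopsies of colon tumors, obtained at colonoscopy from 6 live mice, with 1 early and 1 late biopsy of 1 tumor per mouse, each on its own Affymetrix mouse gene array, which makes 12 arrays. Every mouse was an F1 hybrid of SWR and C57BL/6, carried Apc Min/+ (1 truncated copy of the Wnt pathway suppressor Apc) and had drunk 2 courses of 4% dextran sodium sulfate, which injures the colon lining, so no wild-type, undamaged or tumor-free tissue is among the samples. Early biopsies were taken at 86 to 117 days of age. At the late biopsy, mice 1755, 1803 and 1805 (234, 369 and 395 days old) had adenoma, which is benign, and mice 2201, 3407 and 3413 (267, 215 and 200 days old) had intramucosal carcinoma, cancer still within the mucosa. Early biopsies have no reading of their own and are named after the later reading of the same tumor, so "early carcinoma" stands for a tumor that was read as carcinoma later. Mice 1755 and 3407 were female and the others male.

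Endothelial cells line every vessel, hold together through VE-cadherin, PECAM-1 and claudin-5, and respond to growth factors of the VEGF family through the tyrosine kinase receptors VEGFR1 to VEGFR3 (Flt1, Kdr and Flt4), with neuropilins as co-receptors. The angiopoietins act through the receptor Tie2 (Tek), which keeps vessels stable or lets them sprout, and Dll4 with the Notch receptors limits the number of sprouting tip cells. Transcription factors of the ETS and SOXF families hold endothelial identity. A tumor gains its blood supply largely through VEGF-A, which epithelial and stromal cells release when oxygen is short.

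The defining endothelial markers were present on all arrays. Pecam1 was at 8.11 to 10.45 log2 early and 10.02 to 10.53 late, and Cdh5 at 9.94 to 11.67 and 11.28 to 11.46. A gene was called dim where its mean over the arrays was at or below 6.78 log2, the 95th percentile of 1190 olfactory and vomeronasal receptor genes, and Angpt1 was the only dim member of the 42. The submitters' sample numbers fall into 2 runs, with 155 to 255 for the early biopsies of mice 1755, 1803, 1805 and 2201, and 319 to 379 for all late biopsies and the early ones of mice 3407 and 3413, which are 8 arrays. The labels do not say what these numbers stand for. The first 50 probe sets of the table, which name no gene, had a mean of 7.08 to 7.19 log2 on the 4 arrays and 6.80 to 6.94 on the other 8. Whether the other probe sets without a gene differ in this way was not tested. The median over all genes overlapped, at 8.27 to 8.37 log2 on the 4 arrays and 8.26 to 8.39 on the other 8. All pairs of adenoma mice and that of mouse 2201 cross the runs, and in those pairs the run of numbers cannot be told apart from time.

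The main pattern among the vessel genes followed these arrays. For 22 of the 42 genes the 4 low-numbered early arrays were all below each of the other 8, which held for 2.18% of all genes, and for 0 of the 42 they were all above, against 1.69% of all genes. The 22 were Pecam1, Esam, Emcn, Cd34, Plvap, Eng, Robo4 and Ptprb at the cell surface, the secreted Vwf, Egfl7 and Mmrn2, the receptors Kdr, Flt1, Nrp1, Nrp2, Tek, Tie1 and Aplnr, the transcription factor Sox18, and Rasip1, Arap3 and Nos3 inside the cell. The 4 VEGF family ligands, both angiopoietins, Dll4, Notch4 and 5 of the 6 transcription factors were not among them. Nor were Cdh5, Cldn5, Clec14a and Ecscr at the cell surface, the receptors Flt4 and S1pr1, and Apln. The mean level of the 42 genes was 8.38 to 8.64 log2 on the 4 arrays and 9.14 to 9.46 on the other 8. In bulk tissue, fewer endothelial cells in a biopsy and less RNA of these genes per cell cannot be told apart.

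**Figure D1:**
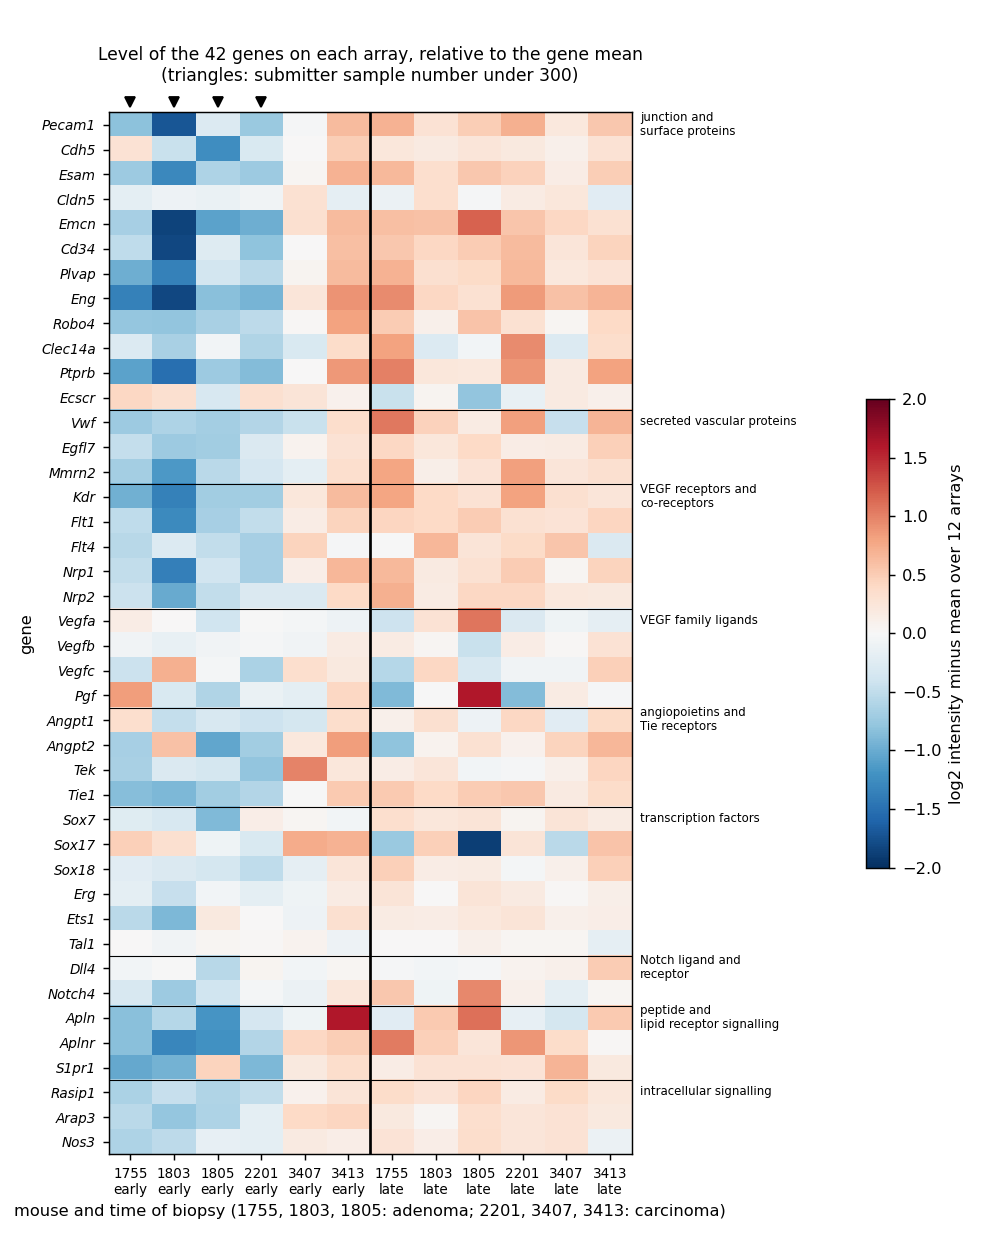
Level of each of the 42 genes (rows, grouped by role) on each of the 12 arrays (columns, mouse and time), as log2 intensity minus the gene's mean over the arrays, blue below and red above; triangles mark the 4 arrays with sample numbers under 300. These 4 columns are blue for most surface proteins and receptors, and the rows of the VEGF family ligands show no such block.

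Over all tumors, late biopsies had higher levels of most vessel genes than early ones, with large median differences in 4 mice and small ones in mice 3407 and 3413. The median late minus early difference over the 42 genes was 0.49 log2, against -0.02 over all genes. Of the 42, 38 were higher, against 42.1% of all genes, and 4 were lower (Ecscr, Sox17, Vegfc and Pgf). By mouse, the median over the 42 was 0.87 in 1755, 0.85 in 1803, 0.84 in 1805 and 0.74 in 2201, and 0.11 in 3407 and -0.14 in 3413, whose pairs lie within 1 run of numbers. In mouse 3413, 10 of the 42 genes were higher late, and in mouse 3407, 29 were. No member passed limma's adjusted p of 0.05 (0% of all genes did, the smallest adjusted p among the 42 being 0.206 for Sox18). At an unadjusted p under 0.05 there were 26 of the 42, against 14.7% of all genes, 25 of them higher, against 5.68%, and 1 lower, Ecscr. Higher late values in 6 of 6 mice were found for Egfl7 and Sox18, 2 of the 42 against 2.59% of all genes. For 0 of the 42 did all late arrays lie above all early ones, against 0.135% of all genes.

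The 2 early arrays with high numbers, which lay above the other 4 early arrays for the 22 genes, were often outside the range of the late arrays. All 4 low-numbered early arrays were below the lowest late array for 23 of the 42 genes, against 2.64% of all genes. The early array of mouse 3407 was below the lowest late array for 21 of the 42 (11% of all genes) and that of mouse 3413 for 1 (9.26%), while for 9 of the 42 mouse 3413 was above the highest late array (10.7%). Both lay within the late range for 14 of the 42 genes, against 59.9% of all genes.

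Among the 12 junction and surface proteins the median difference over all tumors was 0.86 log2, with 11 higher. At an unadjusted p under 0.05, in either direction, were 9 of the 12, against 14.7% of all genes. Eng, endoglin, a helper receptor in TGF-beta signalling of growing endothelium, had the largest difference of the 42. In adenoma mice 1755, 1803 and 1805, in this order here and in later sentences, Eng was at 9.34, 8.86 and 9.85 log2 early and at 11.62, 11.10 and 10.98 late, and in carcinoma mice 2201, 3407 and 3413, also in this order, at 9.75, 10.92 and 11.58 early and 11.54, 11.27 and 11.36 late. The 4 low-numbered arrays (8.86 to 9.85) and the other 8 (10.92 to 11.62) did not overlap, and late minus early was 1.26 (SE 0.345, adjusted p = 0.249) over all tumors by limma. Ptprb, the phosphatase VE-PTP that restrains Tie2 signalling, was low on the same arrays. Ptprb levels of the adenoma mice were 8.37, 7.93 and 8.72 log2 early and 10.46, 9.66 and 9.66 late, and those of the carcinoma mice 8.57, 9.45 and 10.31 early and 10.32, 9.63 and 10.25 late. Its late minus early difference was 1.11 (SE 0.301, adjusted p = 0.249) over all tumors by limma, and its late arrays fell into a higher trio (1755, 2201 and 3413) and a lower trio from mice of both pathologies.

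The other surface genes of this pattern were Emcn, the sialomucin endomucin of veins and capillaries, at 1.21 (SE 0.374) over all tumors, the platelet and endothelial cell adhesion molecule Pecam1 at 0.98 (SE 0.272), Cd34, a sialomucin of capillaries and blood progenitors, at 0.93 (SE 0.288), the junction protein Esam at 0.87 (SE 0.248), Plvap, which forms the diaphragms of fenestrated vessels, at 0.85 (SE 0.276), and the guidance receptor Robo4 at 0.63 (SE 0.231). Cdh5, VE-cadherin, the adhesion protein of endothelial junctions, was less uniform. Early Cdh5 was at 11.46, 10.73 and 9.94 log2 in the adenoma mice and 10.87, 11.18 and 11.67 in the carcinoma mice, and late Cdh5 at 11.41, 11.36 and 11.42 and 11.37, 11.28 and 11.46. Its early arrays spread over 9.94 to 11.67 with the lowest in mouse 1805 and mouse 1755 already at the level of the late arrays, which kept to 11.28 to 11.46. Cldn5, the tight junction claudin of endothelium, differed by 0.12 (SE 0.0768). The C-type lectin Clec14a differed by 0.51 (SE 0.222), with 8.51 and 8.66 late in mice 1755 and 2201 and 7.44 to 8.07 late in the other mice. Ecscr, a small surface protein of endothelial cells that modulates VEGF receptor signalling, went the other way at -0.36 (SE 0.112), with lower late values in 5 of 6 mice.

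Of the 3 secreted vascular proteins all were higher late over all tumors, with a median of 0.85. Egfl7, an EGF domain protein that endothelial cells deposit in the matrix, was the 1 member that passed the adjusted threshold in any comparison. Egfl7 stood at 8.93, 8.68 and 8.70 log2 in early adenoma arrays and 9.82, 9.63 and 9.80 in late ones, and at 9.11, 9.48 and 9.70 and 9.55, 9.57 and 9.87 in early and late carcinoma arrays. Early levels of the adenoma mice (8.68 to 8.93) and their late levels (9.63 to 9.82) did not overlap. Egfl7 is singled out by the test on these same arrays, so this is not separate support. In the adenoma tumors Egfl7 rose 1.97-fold, by 0.98 (SE 0.0927, adjusted p = 0.0378) by limma, in 3 of 3 mice. Without mouse 2201 the adjusted p was 0.0301. It did not pass without mouse 1755 (1.02), 1803 (0.99), 1805 (0.92), 3407 (0.98) or 3413 (0.98), at adjusted p of 0.0659 to 0.13, nor without the replicate block, at 0.104. With the run of sample numbers as a term the Egfl7 difference was 0.66 and did not pass (adjusted p = 0.845 by limma). Over the alternatives tried, the adjusted p ran from 0.0301 to 0.845. The microRNA gene Mir126a lies inside Egfl7 (chromosome 2, 26591357 to 26591429, within 26581083 to 26592682 in GRCm38). Its probe set was at 3.70 to 3.94 log2 early and 3.80 to 4.84 late, below the dim limit on every array.

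Mmrn2, multimerin-2, a matrix protein that binds Clec14a and VEGF-A, followed the same arrays. Mmrn2 measured 7.92, 7.44 and 8.05 log2 early and 9.37, 8.70 and 8.87 late in the adenoma mice, and 8.25, 8.40 and 8.93 early and 9.40, 8.83 and 8.90 late in the carcinoma mice. The difference over all tumors was 0.85 (SE 0.191, adjusted p = 0.219) by limma, with mouse 3413 the one mouse without a higher late value. Vwf, the clotting glycoprotein stored in endothelial granules, was 0.90 (SE 0.226) higher late over all tumors, with changes of 1.78, 1.07 and 0.85 in the adenoma mice and 1.41, -0.02 and 0.32 in the carcinoma mice. Its late arrays spread from 8.84 in mouse 3407 to 10.35 in mouse 1755.

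The promoters of 4 members that differed together are shown because ETS family factors, among them Erg, Ets1 and Fli1, bind a GGAA core in endothelial genes. Promoters reach from 250 bases before to 50 after the start of a gene, from RefSeq on GRCm38.p6, and 24 of the 42 members matched an entry. The genes are Egfl7, which passed the threshold, and Rasip1, Nrp2 and Tie1, the next by unadjusted p over all tumors that have an entry. Capitals mark CAGGAA or CCGGAA on either strand (TTCCTG or TTCCGG as printed), 5′ to 3′ along the gene. Egfl7 is at chr2:26580833-26581132, strand +, the most upstream of its 3 listed starts, Rasip1 at chr7:45627287-45627586, strand +, Nrp2 at chr1:62703067-62703366, strand + and Tie1 at chr4:118489800-118490099, strand -.
Egfl7: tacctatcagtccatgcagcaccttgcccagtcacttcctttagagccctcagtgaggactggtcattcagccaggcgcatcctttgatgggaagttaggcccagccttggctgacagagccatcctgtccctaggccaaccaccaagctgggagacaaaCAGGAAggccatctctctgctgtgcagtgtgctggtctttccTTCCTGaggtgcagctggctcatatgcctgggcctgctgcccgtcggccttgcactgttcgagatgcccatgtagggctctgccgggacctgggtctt
Rasip1: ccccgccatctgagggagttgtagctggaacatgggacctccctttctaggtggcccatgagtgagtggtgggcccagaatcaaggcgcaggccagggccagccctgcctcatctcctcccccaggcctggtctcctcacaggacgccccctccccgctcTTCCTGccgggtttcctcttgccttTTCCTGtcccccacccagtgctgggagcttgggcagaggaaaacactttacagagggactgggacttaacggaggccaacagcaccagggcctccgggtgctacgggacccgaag
Nrp2: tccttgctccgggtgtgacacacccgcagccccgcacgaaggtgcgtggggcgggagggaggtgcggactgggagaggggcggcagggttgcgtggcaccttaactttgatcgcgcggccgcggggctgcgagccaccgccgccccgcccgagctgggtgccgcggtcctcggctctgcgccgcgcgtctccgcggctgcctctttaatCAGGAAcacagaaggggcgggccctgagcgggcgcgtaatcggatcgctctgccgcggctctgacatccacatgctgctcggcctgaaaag
Tie1: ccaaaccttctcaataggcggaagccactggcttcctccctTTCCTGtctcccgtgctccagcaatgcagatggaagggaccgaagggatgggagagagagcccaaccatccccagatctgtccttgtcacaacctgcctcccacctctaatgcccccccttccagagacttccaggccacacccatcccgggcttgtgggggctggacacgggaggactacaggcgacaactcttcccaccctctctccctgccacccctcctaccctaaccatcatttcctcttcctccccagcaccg
Egfl7 has a match that begins at base -90 and another at -48 from the start, Rasip1 at -90 and -65, Nrp2 at -41 and Tie1 at -209. CAGGAA on either strand was in 14 of the 24 member promoters (58.3%) and in 30.4% of the 27025 promoters of all genes, 1 per gene, and CCGGAA in 1 of 24 (4.17%) and 15.2%. A SOX motif, ACAATG, was in 1 of 24 (12.8% of all), a GATA motif, AGATAA, in 3 of 24 (11.4%), and the hypoxia response core ACGTG in 1 of 24 (19.6%). These matches describe letters in a window and were not tested for binding.

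All 5 VEGF receptors and co-receptors were higher late over all tumors, by a median of 0.71. All 5 had an unadjusted p under 0.05, against 14.7% of all genes in either direction and 5.68% higher. Flt1, VEGFR1, which binds VEGF-A, VEGF-B and placental growth factor, had late levels within a narrow band. For Flt1, the adenoma mice had 8.98, 8.21 and 8.82 log2 early and 9.92, 9.89 and 10.00 late, and the carcinoma mice 9.00, 9.63 and 9.94 early and 9.80, 9.76 and 9.92 late. Late levels kept to 9.76 to 10.00, and the 4 low-numbered early arrays lay at or below 9.00. The difference over all tumors was 0.78 (SE 0.216, adjusted p = 0.249) by limma. Kdr, VEGFR2, the main signalling receptor for VEGF-A, was 0.95 (SE 0.303) higher late, from early levels of 7.75, 7.37 and 8.01 in the adenoma mice and 8.01, 8.94 and 9.34 in the carcinoma mice. Flt4, VEGFR3, found on lymphatic and sprouting endothelium, was 0.52 (SE 0.173) higher.

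The co-receptor Nrp2, neuropilin-2, of veins and lymphatics, differed from Flt1 in the early array of mouse 3407. Nrp2 levels of the adenoma mice were 9.04, 8.46 and 8.98 log2 early and 10.18, 9.63 and 9.89 late, and those of the carcinoma mice 9.17, 9.18 and 9.86 early and 9.89, 9.68 and 9.66 late. There, mouse 3407 was early at the level of the low-numbered array of mouse 2201. The difference over all tumors was 0.71 (SE 0.174, adjusted p = 0.235) by limma. Nrp1, which also binds semaphorins, was 0.70 (SE 0.246) higher late, in 4 of 6 mice.

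The VEGF family ligands had small differences on balance. Their median difference over all tumors was 0.03 log2, with 2 of 4 higher and 0 at an unadjusted p under 0.05. Early Vegfa was at 10.56, 10.43 and 10.01 log2 in the adenoma mice and 10.41, 10.37 and 10.31 in the carcinoma mice, and late Vegfa at 10.01, 10.71 and 11.49 and 10.13, 10.33 and 10.23. Late Vegfa of mouse 1805 was the highest of the 12 arrays and the others overlapped between time points, with a difference of 0.13 (SE 0.24) over all tumors (adjusted p = 0.84 by limma, 95% interval -0.43 to 0.69). Without mouse 1805 it was -0.14. Vegfb stood at 9.66, 9.57 and 9.66 log2 in early adenoma arrays and 9.89, 9.76 and 9.29 in late ones, and at 9.71, 9.66 and 9.89 and 9.87, 9.75 and 10.02 in early and late carcinoma arrays. Vegfb, the ligand of Flt1 alone among the VEGF receptors, was higher late in 5 of 6 mice and at a change of -0.37 in mouse 1805, with a difference of 0.07 (SE 0.0854) and a 95% interval of -0.13 to 0.27.

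Pgf, placental growth factor, another Flt1 ligand, differed in sign between mice, from -1.72 in mouse 1755 to 2.20 in mouse 1805, with a difference of -0.01 (SE 0.44) over all tumors. In late mouse 1805 Pgf was at 9.39, where late levels in the other mice were 6.91 to 7.96. The 12 hypoxia response genes, of which 0 are dim, had the same mice at the ends: their mean level was higher late by 0.96 in mouse 1805 and differed by -0.31 in mouse 1755, and its part in the ligand levels was not tested. Vegfc, which drives lymphatic growth through Flt4, differed by -0.04 (SE 0.134).

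In the angiopoietin and Tie system, with a median of 0.29 and 4 of 4 higher late, both receptors but neither ligand were below all other values on the 4 low-numbered arrays. Tie1, the orphan receptor that pairs with Tie2, had the larger difference of both. Tie1 measured 8.00, 7.95 and 8.16 log2 early and 9.38, 9.24 and 9.36 late in the adenoma mice, and 8.26, 8.84 and 9.37 early and 9.39, 9.03 and 9.21 late in the carcinoma mice. The 4 arrays lay at 7.95 to 8.26 and the other 8 at 8.84 to 9.39, with a difference over all tumors of 0.84 (SE 0.221, adjusted p = 0.243) by limma. Tek, Tie2 itself, was at 7.50, 9.28 and 8.51 early in mice 2201, 3407 and 3413, and its early level in mouse 3407 was the highest of the 12 arrays. Its difference of 0.29 (SE 0.21) did not reach an unadjusted p under 0.05. Angpt2, the antagonist that tip cells release, spread over 9.01 to 10.88 early and 9.23 to 10.71 late, with a difference of 0.26 (SE 0.233). For Angpt1, the adenoma mice had 6.37, 5.56 and 5.70 log2 early and 6.13, 6.35 and 5.93 late, and the carcinoma mice 5.61, 5.68 and 6.38 early and 6.45, 5.80 and 6.42 late. Angpt1, the stabilising Tie2 ligand of pericytes, was dim, and these values overlapped between time points, with a difference of 0.30 (SE 0.148).

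Of the 6 transcription factors 5 were higher late, with a median of 0.31. Sox18, a SOXF factor of endothelial and lymphatic fate, had the smallest p of the 42 over all tumors. Sox18 levels of the adenoma mice were 8.76, 8.70 and 8.63 log2 early and 9.47, 9.13 and 9.15 late, and those of the carcinoma mice 8.48, 8.81 and 9.23 early and 8.95, 9.09 and 9.46 late. Each of the 6 mice was higher late, by 0.23 to 0.71, including the pairs of mice 3407 and 3413, and the difference was 0.44 (SE 0.0714, adjusted p = 0.206) by limma. Early Erg was at 7.87, 7.60 and 8.00 log2 in the adenoma mice and 7.87, 7.98 and 8.22 in the carcinoma mice, and late Erg at 8.33, 8.07 and 8.32 and 8.24, 8.09 and 8.18. Erg, an ETS factor that keeps junction genes on, differed by 0.28 (SE 0.0796, adjusted p = 0.253) by limma, and its early and late arrays overlapped. Sox7, also of the SOXF family, differed by 0.44 (SE 0.146) and Ets1, an ETS factor also expressed in lymphocytes, by 0.34 (SE 0.157), with late levels within 9.45 to 9.61. Tal1, a factor of blood and endothelial progenitors, differed by 0.00 (SE 0.0466).

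Sox17, the third SOXF factor, which marks arterial endothelium, went against Sox7 and Sox18. Sox17 stood at 10.25, 10.10 and 9.69 log2 in early adenoma arrays and 9.02, 10.25 and 7.89 in late ones, and at 9.47, 10.51 and 10.47 and 10.04, 9.24 and 10.34 in early and late carcinoma arrays. It had the widest late spread of the 42, 7.89 to 10.34, with the lowest value in mouse 1805, and its difference over all tumors was -0.62 (SE 0.315), lower in 4 of 6 mice.

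Dll4, the Notch ligand of tip cells, kept to a narrow range with 1 array at each end. Dll4 measured 9.45, 9.51 and 8.95 log2 early and 9.49, 9.45 and 9.48 late in the adenoma mice, and 9.56, 9.46 and 9.54 early and 9.58, 9.60 and 10.01 late in the carcinoma mice. The early array of mouse 1805 was lowest and the late array of mouse 3413 highest, and the difference over all tumors was 0.19 (SE 0.0925, adjusted p = 0.38) by limma. For Notch4, the adenoma mice had 8.81, 8.40 and 8.72 log2 early and 9.67, 9.04 and 10.09 late, and the carcinoma mice 9.08, 9.00 and 9.35 early and 9.23, 8.92 and 9.16 late. Notch4, a Notch receptor largely restricted to endothelium, was higher late in 3 of 3 adenoma mice and 1 of 3 carcinoma mice. It differed by 0.46 (SE 0.204, adjusted p = 0.354) over all tumors by limma.

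The receptors for small ligands were higher late as well. Aplnr, the apelin receptor of veins and sprouts, separated the 4 low arrays. Aplnr levels of the adenoma mice were 8.29, 7.84 and 7.92 log2 early and 10.17, 9.61 and 9.38 late, and those of the carcinoma mice 8.54, 9.55 and 9.63 early and 10.01, 9.50 and 9.17 late. The difference was 1.01 (SE 0.336, adjusted p = 0.274) over all tumors by limma. Its ligand Apln, a peptide of tip cells, was highest in the early array of mouse 3413 at 10.85, followed by late mouse 1805 at 10.36, and differed by 0.47 (SE 0.388). Early S1pr1 was at 8.28, 8.37 and 9.76 log2 in the adenoma mice and 8.41, 9.50 and 9.66 in the carcinoma mice, and late S1pr1 at 9.46, 9.59 and 9.61 and 9.58, 9.99 and 9.51. S1pr1, the receptor for sphingosine 1-phosphate that seals junctions and is also found on lymphocytes, was at 8.28 to 8.41 early in mice 1755, 1803 and 2201 but 9.76 in mouse 1805, and differed by 0.63 (SE 0.223, adjusted p = 0.287) by limma.

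All 3 intracellular members were among the 22 genes with the 4 low-numbered arrays below the rest. Rasip1, a Ras-interacting protein needed for vessel lumens, had little spread among the 4 low arrays. Rasip1 stood at 7.40, 7.57 and 7.43 log2 in early adenoma arrays and 8.39, 8.30 and 8.45 in late ones, and at 7.54, 8.11 and 8.29 and 8.19, 8.41 and 8.26 in early and late carcinoma arrays. The 4 arrays lay at 7.40 to 7.57 and the other 8 arrays at 8.11 to 8.45, and the difference over all tumors was 0.61 (SE 0.142, adjusted p = 0.223) by limma. Nos3 measured 7.58, 7.67 and 8.02 log2 early and 8.46, 8.33 and 8.55 late in the adenoma mice, and 8.00, 8.36 and 8.33 early and 8.43, 8.49 and 8.08 late in the carcinoma mice. Nos3, endothelial nitric oxide synthase, which relaxes vessels, differed by 0.40 (SE 0.141, adjusted p = 0.286) by limma. Arap3, an intracellular signalling protein, differed by 0.43 (SE 0.172), in 4 of 6 mice.

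**Figure D2:**
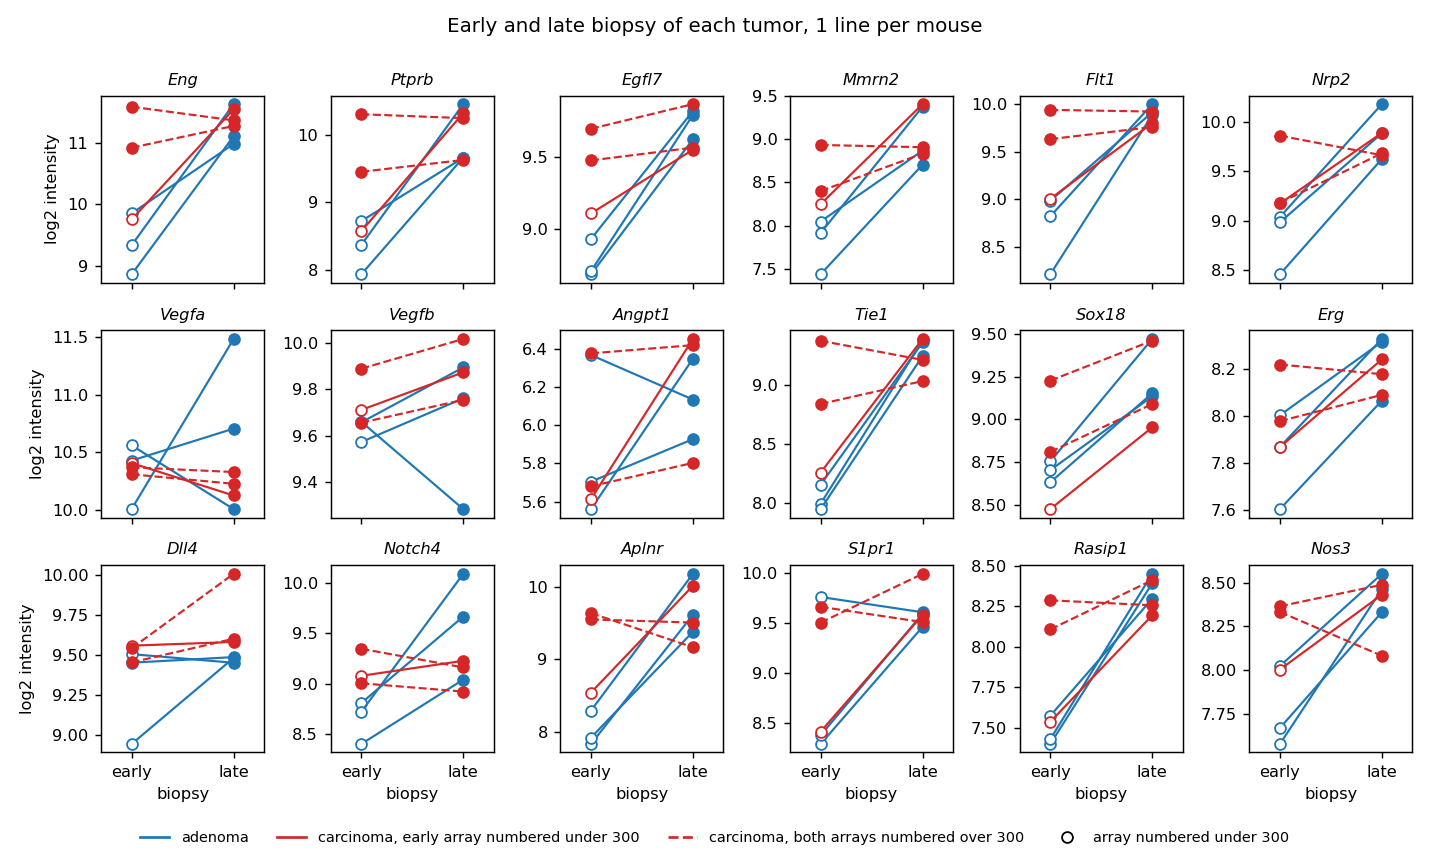
Log2 intensity of the early and late biopsy, 1 line per mouse, for the 2 members of each role group with the smallest p over all tumors; blue lines are adenoma tumors, red lines carcinoma tumors, dashed lines pairs whose arrays both have high sample numbers, and open circles arrays with low numbers. Open circles start low for Eng, Ptprb, Egfl7, Flt1, Tie1 and Rasip1, and the dashed lines start above every open circle for these genes.

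The late minus early differences were larger in adenoma than in carcinoma tumors, although no member passed the test of that difference. In adenoma tumors the median late minus early difference over the 42 was 0.79 log2, against -0.01 over all genes. Of the 42, 39 were higher, against 47.2% of all genes, and 31 were higher in 3 of 3 mice, against 17.0% of all genes. By limma 1 of the 42, Egfl7, passed the adjusted threshold, against 0.125% of all genes, and 29 had an unadjusted p under 0.05, against 18%, of which 28 were higher (7.38% of all genes). Emcn at 1.98 (SE 0.372, adjusted p = 0.0924), Eng at 1.89 (SE 0.392, adjusted p = 0.105), Aplnr at 1.70 (SE 0.335, adjusted p = 0.0979), Ptprb at 1.59 (SE 0.368, adjusted p = 0.118), Kdr at 1.49 (SE 0.346, adjusted p = 0.118) and Pecam1 at 1.42 (SE 0.331, adjusted p = 0.118) had the largest of these differences and did not pass in limma's test. Leaving out mouse 2201, whose carcinoma pair has no part in the estimate but adds to the spread, 7 of the 42 passed, against 0.391% of all genes (78 of 19938): Aplnr, Arap3, Egfl7, Esam, Rasip1, Robo4 and Tie1. Leaving out any other mouse left 0 past the threshold. All 3 adenoma pairs cross the runs of sample numbers.

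In carcinoma tumors the median difference was 0.29 log2, against -0.03 over all genes. Of the 42, 35 were higher, against 39.8% of all genes, and 5 were higher in 3 of 3 mice, against 9.73% of all genes. None of the 42 passed the adjusted threshold by limma (0% of all genes). At an unadjusted p under 0.05 were 2 of the 42, Egfl7 at 0.24 (SE 0.0927) and Sox18 at 0.33 (SE 0.0885), a share of 4.76% that is close to the 4.30% of all genes. Without mouse 2201 the median was -0.02, from the pairs of mice 3407 and 3413 alone. Mouse 2201 alone had changes such as 1.79 for Eng, 1.75 for Ptprb and 1.52 for Emcn, where mouse 3407 had 0.35, 0.18 and 0.10 and mouse 3413 -0.22, -0.06 and -0.33.

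The difference of both changes, carcinoma minus adenoma, had a median of -0.62 log2 over the 42, against -0.01 over all genes. It was below 0 for 34 of the 42 and above 0 for 8, where 47.1% of all genes were above 0. By limma 0 of the 42 passed the adjusted threshold (0% of all genes), and 15 had an unadjusted p under 0.05, all 15 lower, against 7.04% of all genes in either direction and 3.37% lower. Egfl7, at -0.74 (SE 0.131, adjusted p = 0.561), and Notch4, at -0.99 (SE 0.205, adjusted p = 0.561), had the smallest adjusted p by limma. Sample numbers go with pathology here too, since 3 of 3 adenoma pairs but 1 of 3 carcinoma pairs cross the runs.

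**Figure D3:**
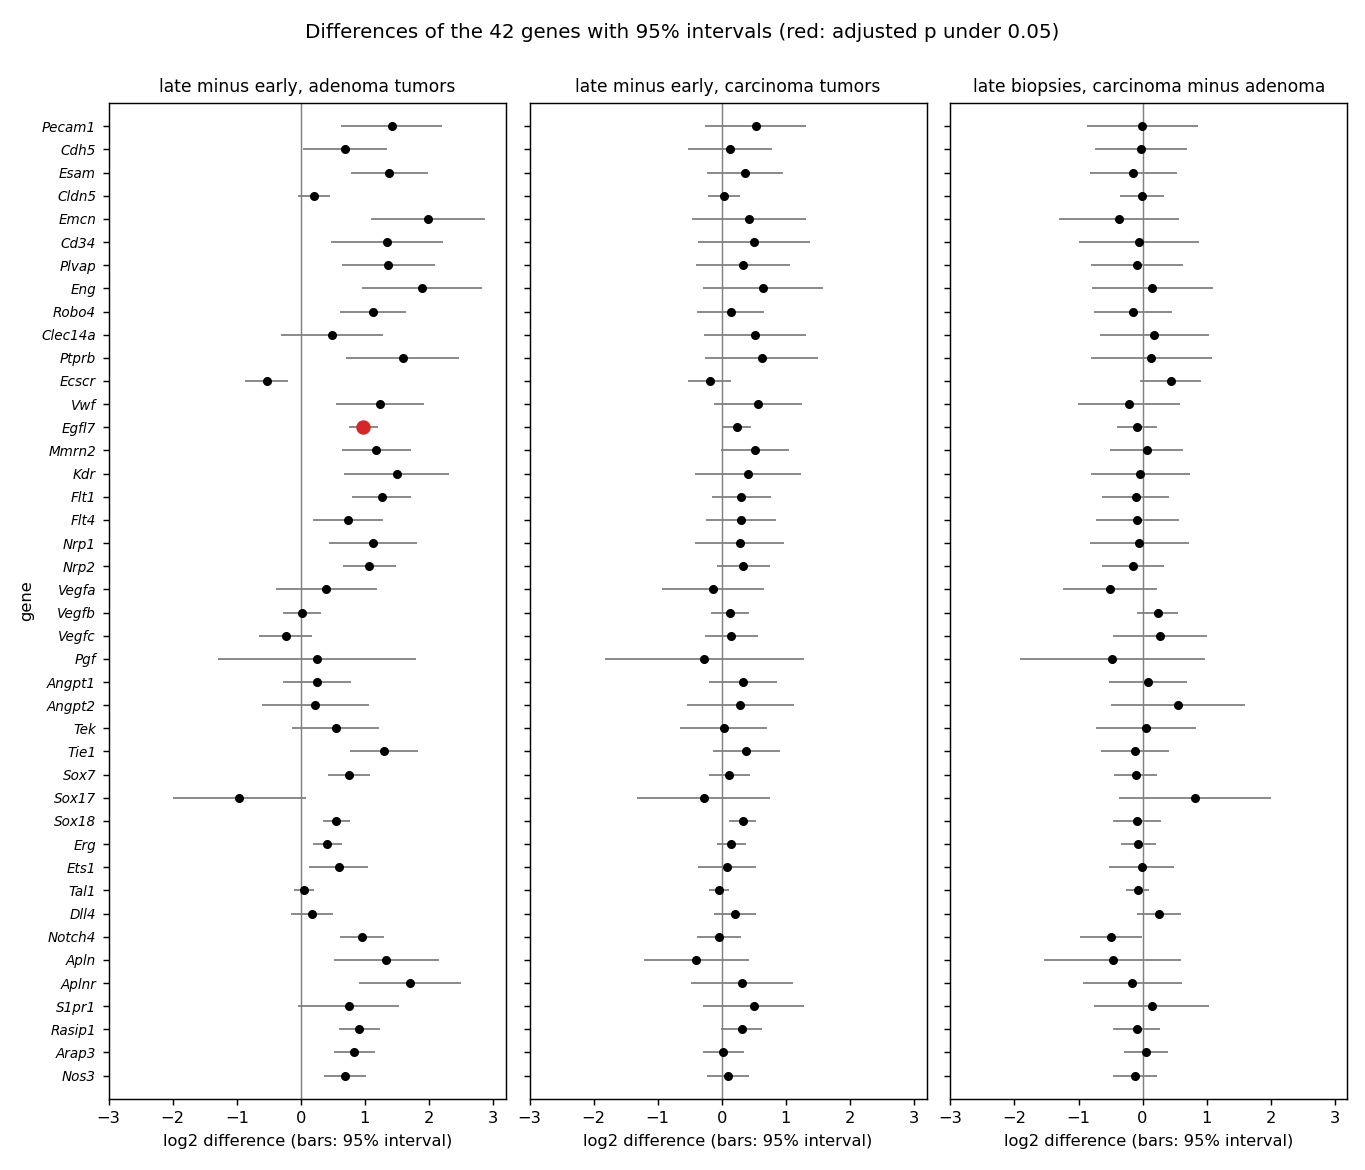
Log2 difference of each of the 42 genes with its 95% interval from limma, for late minus early in adenoma tumors (left), late minus early in carcinoma tumors (middle) and carcinoma minus adenoma among late biopsies (right); red marks an adjusted p under 0.05. Most intervals in the left panel lie above 0 and Egfl7 is the red point, while in the right panel the interval of Notch4 is the one that leaves out 0.

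Among early biopsies, tumors later read as carcinoma had higher levels of 41 of the 42 genes than those later read as adenoma, against 60.1% of all genes. The median difference was 0.52 log2, against 0.04 over all genes. No member passed limma's adjusted threshold (0% of all genes), while 21 had an unadjusted p under 0.05, against 12.0% of all genes, all 21 higher (7.06%). Arap3 had the smallest p at 0.86 (SE 0.157, adjusted p = 0.148), followed by Egfl7 at 0.66 (SE 0.142, adjusted p = 0.203), both by limma. Within the low run of numbers, mouse 2201 can be set beside the adenoma mice. Its early array was above all 3 early adenoma arrays for 16 of the 42 genes, against 39.7% of all genes, below them for 5 (Flt4, Vegfc, Tek, Sox17 and Sox18), against 16.5%, and between them for 21. For both genes with the smallest p it was above, with Egfl7 at 9.11 against 8.93, 8.68 and 8.70 and Arap3 at 8.35 against 8.00, 7.76 and 7.93. Both were picked by a test that includes this array, so their values are not separate support. With the run of numbers as a term the median was 0.13. Without mouse 2201 it was 0.72, and 1 member, Arap3, passed, against 3 of all 19938 genes (0.0150%). In that fit the early carcinoma arrays are those of mice 3407 and 3413, both in the high run, and the early adenoma arrays are all in the low run. Pathology and the run of numbers then coincide and cannot be told apart.

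Among late biopsies, whose arrays all lie in 1 run of numbers, no vessel gene differed between carcinoma and adenoma past the adjusted threshold. The median difference, carcinoma minus adenoma, was -0.06 log2, against 0.02 over all genes. Of the 42, 14 were higher, against 54.2% of all genes, and 28 were lower. By limma 0 of the 42 passed the adjusted threshold (0% of all genes) and 1 had an unadjusted p under 0.05, against 11.7% of all genes. That was Notch4, at -0.49 (SE 0.218, adjusted p = 0.423), with late adenoma arrays at 9.67, 9.04 and 10.09 and late carcinoma arrays at 9.23, 8.92 and 9.16, which overlap. With 3 mice per pathology, the 95% intervals allowed differences of -0.80 to 1.11 for Eng, -0.80 to 0.74 for Kdr, -0.63 to 0.42 for Flt1, -0.40 to 0.23 for Egfl7 and -1.24 to 0.22 for Vegfa. Late carcinoma biopsies came from mice of 200 to 267 days and late adenoma biopsies from mice of 234 to 395 days, so age goes in part with pathology.

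A list of 40 other endothelial genes, also chosen with earlier results of these data known, showed the same arrays low. Their mean level was 8.25 to 8.52 log2 on the 4 low-numbered arrays and 8.77 to 9.09 on the other 8. All 4 arrays were below all others for 13 of the 40, against 2.18% of all genes. Late minus early over all tumors, 34 of the 40 were higher, against 42.1% of all genes, with a median of 0.22 and 0 past limma's adjusted threshold. At an unadjusted p under 0.05, 15 were higher, against 5.68% of all genes, and 1 was lower. Cyyr1 was at 0.84 (SE 0.175), the adhesion receptor Adgrf5 at 1.18 (SE 0.328), the adhesion receptor Adgrl4, a marker of angiogenic endothelium, at 1.25 (SE 0.354), and Calcrl, the receptor for adrenomedullin, at 0.82 (SE 0.237). The 5 measured lymphatic genes of 6 listed overlapped between the arrays, at 8.71 to 9.13 and 9.09 to 10.00.

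Some markers of other cell types were low on the same arrays. The 9 pericyte genes, which include Pdgfrb and Rgs5, had a mean level of 7.88 to 8.19 log2 on the 4 arrays and 8.45 to 8.99 on the other 8, without overlap. Taken singly, 2 of 9 were below on all 4 arrays, against 2.18% of all genes, and 1 gene was dim. The 10 fibroblast genes, led by Dcn and Col1a1, were at 9.24 to 10.45 and 10.44 to 11.30, with 7 of 10 below on all 4 arrays (2.18% of all genes). The 8 smooth muscle genes, such as Acta2, overlapped at 8.37 to 9.56 and 8.92 to 9.67, and so did the 10 leukocyte genes at 8.93 to 10.33 and 9.41 to 10.34. The 10 epithelial genes, such as Krt8 and Lgals4, were at 12.86 to 12.96 and 12.56 to 13.17. The 3 measured erythroid genes of 11 listed, among them Alas2, were at 6.98 to 7.72 and 7.03 to 10.29, with the highest level in the late biopsy of mouse 1805. The 7 measured platelet genes of 9 listed, such as Pf4, were at 8.11 to 8.51 and 8.11 to 9.38. Besides the dim pericyte gene, 1 erythroid gene and 2 of the other endothelial genes were dim, and 0 in the remaining lists. The part of these cell types in the vessel gene levels was not tested.

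**Figure D4:**
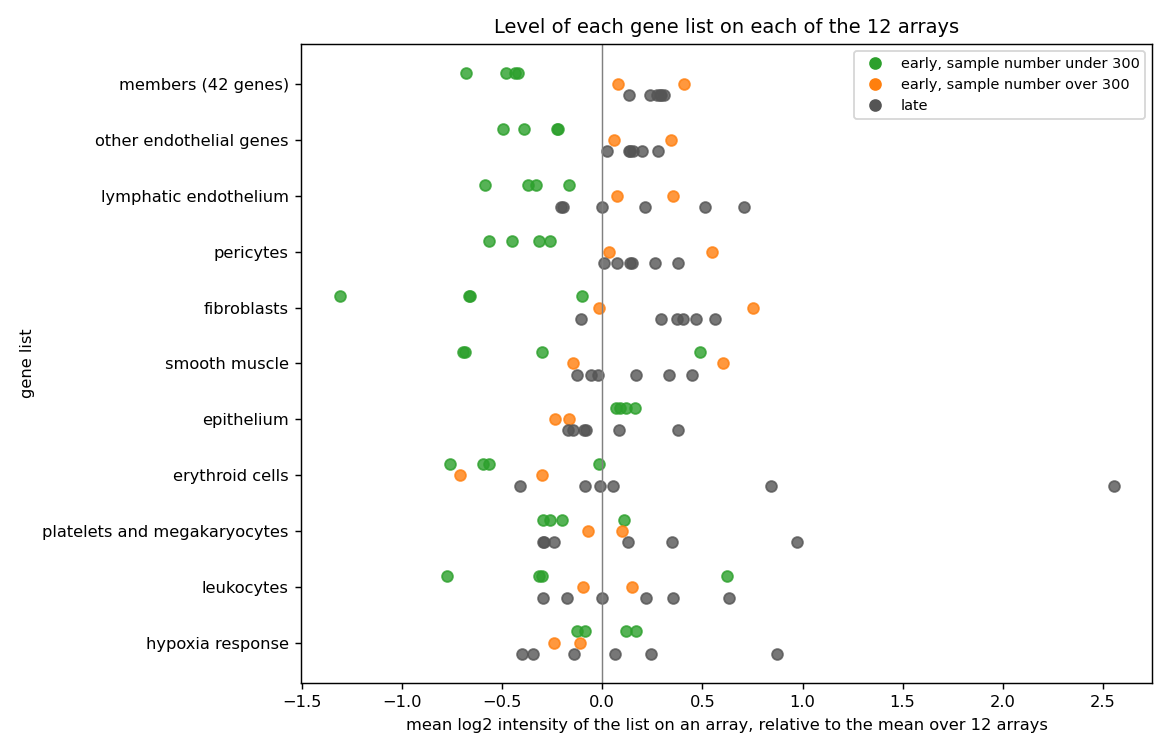
Mean log2 intensity of each gene list on each of the 12 arrays, relative to the mean over the arrays; green points are early arrays with low sample numbers, orange points early arrays with high numbers and grey points late arrays. The green points of the 42 genes, of the other endothelial genes and of the pericytes lie left of every other point, and those of the epithelial, leukocyte and hypoxia lists overlap the rest.

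Within the late biopsies the 42 genes varied to different degrees. The SD over the 6 late arrays was lowest for Ets1 (0.0561), Cdh5 (0.0642), Flt1 (0.0878) and Sox7 (0.0947) and highest for Sox17 (0.941), Pgf (0.906), Apln (0.574), Vegfa (0.547) and Vwf (0.539). Mouse 1805 held the late extreme of Sox17, Pgf, Apln and Vegfa.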

How the data were processed

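Per the labels, 300 ng of RNA from each biopsy, kept in RLT or RNALater, went into the Ambion WT Expression kit. The table the authors deposited has 35557 probe sets, taken as log2 intensity because of its range. Its summarising and normalization steps are not given, and its values entered without change. Probe sets naming 1 gene symbol were kept (21789; 1621 name several, 12147 none), and the highest-mean probe set was used for the 999 genes with several, which left 19938 genes. The number of arrays limits the precision.

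The tests were those of limma 3.58.1 under R 4.3.3 (lmFit, eBayes, 2-sided moderated t, Benjamini-Hochberg over all genes, threshold 0.05). Late against early, by pathology too, had mouse as a fixed block. Pathologies were compared in 4 groups with mouse as a random block (consensus correlation 0.286). Pairs come from the same animal, and their 2 arrays correlated at 0.110 to 0.527 in deviations from the time point mean. The fit was tested on simulated data.

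The members and lists were chosen with earlier results of these data known. Every member is named. Array values are given for members past the threshold and the 2 per role with the smallest p, and also for Cdh5 and Sox17, chosen after their values were seen. Of the other endothelial genes the 4 with the smallest p are named. Promoter motifs were chosen after the data were seen. Alternatives were quantile normalization, centred medians, no dim genes, mean of probe sets, trended prior, no block, the run of sample numbers as a term and leaving out each mouse.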

Additional observations from a re-analysis of the deposited data

Results flagged for a closer look

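A single mouse lay far from the other 5 in 10 of the 126 sets of values examined (early level, late level and change of each of the 42 genes, by Dixon's test at the 95% level). Chance alone gives about 1 in 20 such sets, and the sets share arrays.

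Mouse 1805 had the highest late Emcn, at 11.07 log2 where the others had 10.20 to 10.49, the lowest early Dll4, at 8.95 (9.45 to 9.56 in the others), and the lowest late Vegfb, at 9.29 (9.75 to 10.02), with a Vegfb change of -0.37 (0.10 to 0.24). Mouse 3407 had the highest early Cldn5, at 8.52 (8.02 to 8.15), the highest late S1pr1, at 9.99 (9.46 to 9.61), and the lowest change of Tek, at -0.88 (0.22 to 0.80). Mouse 3413 had the highest early Vwf, at 9.65 (8.57 to 8.86), the highest late Dll4, at 10.01 (9.45 to 9.60), and the lowest late Tal1, at 7.71 (7.91 to 7.99).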

How the results depend on the processing

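With the run of sample numbers as a term, the estimate over all tumors rests on mice 3407 and 3413, and that in adenoma tumors takes the effect of the run from mouse 2201 against these mice. The median difference over the 42 genes was then -0.016 log2 over all tumors in place of 0.49, 0.10 in adenoma tumors in place of 0.79, -0.088 for the difference of changes in place of -0.62 and 0.13 between early biopsies in place of 0.52. The sign turned for Vegfa (-0.062), Notch4 (-0.13), Aplnr (-0.26) and Nos3 (-0.064) over all tumors and for Ptprb (-0.11), Vegfb (-0.032), Angpt1 (-0.50), Aplnr (-0.021) and S1pr1 (-0.26) in adenoma tumors. Egfl7 in adenoma tumors, at 0.66, was no longer called, which left 0 members. Late biopsies all lie in 1 run, so this term could not be tried there. Without the replicate block Egfl7, at 0.98, was not called in adenoma tumors either (0 members), and the block changed no other call.

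Leaving out 1 mouse in turn, the median ran from 0.44 to 0.64 over all tumors, 0.79 to 0.92 in adenoma tumors, -0.016 to 0.44 in carcinoma tumors, -0.83 to -0.49 for the difference of changes, 0.38 to 0.72 between early biopsies and -0.11 to 0.0067 between late ones. Members called ran from 0 to 7 in adenoma tumors and from 0 to 1 between early biopsies, the higher value in both without mouse 2201, where 0.391% and 0.0150% of all genes were called. Without that mouse, pathology coincides with the run of numbers among early biopsies. The sign depended on a single mouse for Vegfa over all tumors (-0.14 to 0.27) and in adenoma tumors (-0.14 to 0.88) and for Dll4 in adenoma tumors (-0.0094 to 0.29), negative without mouse 1805, for Vegfb in adenoma tumors (-0.094 to 0.21), negative without mouse 1755 or 1803 (-0.07), and for Angpt1 in adenoma tumors (-0.0054 to 0.50), negative without mouse 1803. Without dim genes, Angpt1 among them, the adenoma median was 0.83. Quantile normalization, centred medians, the mean of probe sets and the trended prior moved no median by more than its spread between mice and no count of called members. The cause of these changes was not tested. Dim signal limits Angpt1.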
